A study of Homo sapiens with 9 samples.

Results

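The genes described here are the splicing factors whose symbols belong to the SRSF, HNRNP, SF3A, SF3B, SNRP and U2AF series. They were chosen by symbol alone, which gave 65 of the 26196 gene symbols in the deposited table: 12 SRSF, 29 HNRNP, 11 SF3 with U2AF, and 13 SNRP genes. RNA was measured in 9 libraries of HCA2, an established line of human foreskin fibroblasts grown in DMEM with 10% FBS. Cells labelled proliferative gave the 3 normal libraries. The other 6 came from senescent cells, 3 from a PD-L1-negative and 3 from a PD-L1-positive fraction. Per the labels' protocols, senescence was induced with doxorubicin, which damages DNA, at 100 nM for 24 hours, and BI-2536, which inhibits PLK1, a kinase of mitosis, was then kept on the cells at 100 nM up to a total of 12 days. The label for PD-L1 is positive in the normal libraries too, and whether these were sorted is not stated. Doxorubicin, BI-2536, time in culture and sorting therefore cannot be told apart in any comparison with the normal libraries. PD-L1 restrains T cells by binding their receptor PD-1, and the design asks how the senescent fractions differ from proliferating cells and from each other.

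SR proteins (SRSF) bind exonic sequences and recruit the spliceosome through domains rich in arginine and serine, whereas hnRNPs coat nascent transcripts and often repress nearby splice sites. U2AF recognises the end of the intron, SF3A and SF3B anchor the U2 snRNP at the branch point, and most SNRP genes encode the Sm ring or proteins particular to the U1 and U2 snRNPs. Many SRSF and HNRNP genes control their own level by splicing in an exon that places a stop codon ahead of an exon junction, which marks the RNA for nonsense-mediated decay.

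Levels are given in FPKM, fragments counted per kilobase and corrected for library depth, summed over the transcripts of a gene. Differences are differences of log2(FPKM + 0.5), so those of low genes are understated, and they were tested with limma over all 12763 genes whose mean reached 0.5 FPKM. A gene was called at a Benjamini-Hochberg adjusted p under 0.05. Whether replicates were separate cultures is not stated, so p-values measure only the spread between these libraries. Since these are bulk samples, fewer cells of a type and less RNA per cell cannot be told apart.

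Each library had an estimated 11600000 to 17800000 fragments, and 11437 to 11891 genes reached 1 FPKM. Summed over 10 dermal fibroblast markers, the level was 8849 to 11332 FPKM in normal and 12013 to 15429 in senescent libraries, and all 10 markers were expressed. None of 5 endothelial and none of 5 leukocyte markers had a mean of 1 FPKM. Keratinocyte markers reached it in 2 of 6 cases and summed to 30.6 to 40.4 FPKM in normal and 31.8 to 34.8 in senescent libraries, with KRT5 and TP63 listed at 0 in every normal library. Melanocyte markers reached it in 2 of 5 cases and summed to 4.86 to 8.81 FPKM in normal against 10.8 to 12.2 in senescent libraries, with DCT listed at 0 in all 9. Pericyte markers reached it in 3 of 4 cases and summed to 66.5 to 68.2 FPKM in normal against 29 to 38.3 in senescent libraries. The part of the last 2 lists in the results was not tested. The normal libraries differed in proliferation, and 10 proliferation genes summed to 932, 505 and 233 FPKM in normal replicates 1, 2 and 3, against 53.1 to 133 in senescent ones.

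Transcripts of the splicing factors were less abundant in both senescent fractions. Of the 65 genes, 56 passed the filter, and in the mean of both senescent groups against normal 47 of these fell and 2 rose, whereas 7 were not called. Among all genes tested, 29.9% were called lower and 23.9% higher. Called in either direction were 49 of the 56, against 53.8% of all genes. The median log2 difference was −0.84 over the 56 genes and −0.04 over all genes, and 21 of the 56 were called with a difference of −1 or below, against 6.01% of all genes. Summed over all 65 genes, the level was 5530, 5172 and 4257 FPKM in normal replicates 1, 2 and 3. It was 2771, 2837 and 2858 in the PD-L1-negative and 2772, 2776 and 2906 in the PD-L1-positive libraries. Every senescent library was below every normal one.

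The libraries did not overlap for 46 of the 56 genes, of which 44 had every senescent library lower and 2 had every one higher. The same held for 27.3% and 21.5% of all genes tested. Within the normal group, replicate 1 was highest and replicate 3 lowest for 35 of the 56 genes, an order found in 30.3% of all genes tested. The proliferation genes had that order too, and their part in the result was not tested. The 47 genes that fell stood a median 1.68 times higher in normal replicate 3, the library with the lowest proliferation sum of the 3, than in the mean of the senescent libraries, with a range from 1.07 to 6.21. The top value was that of the pseudogene HNRNPA1P33, near the floor at 1.345 FPKM in normal replicate 3 and 0.216 in the senescent mean. Without normal replicate 1, which had the highest proliferation sum, 43 genes fell and 1 rose.

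**Figure D1:**
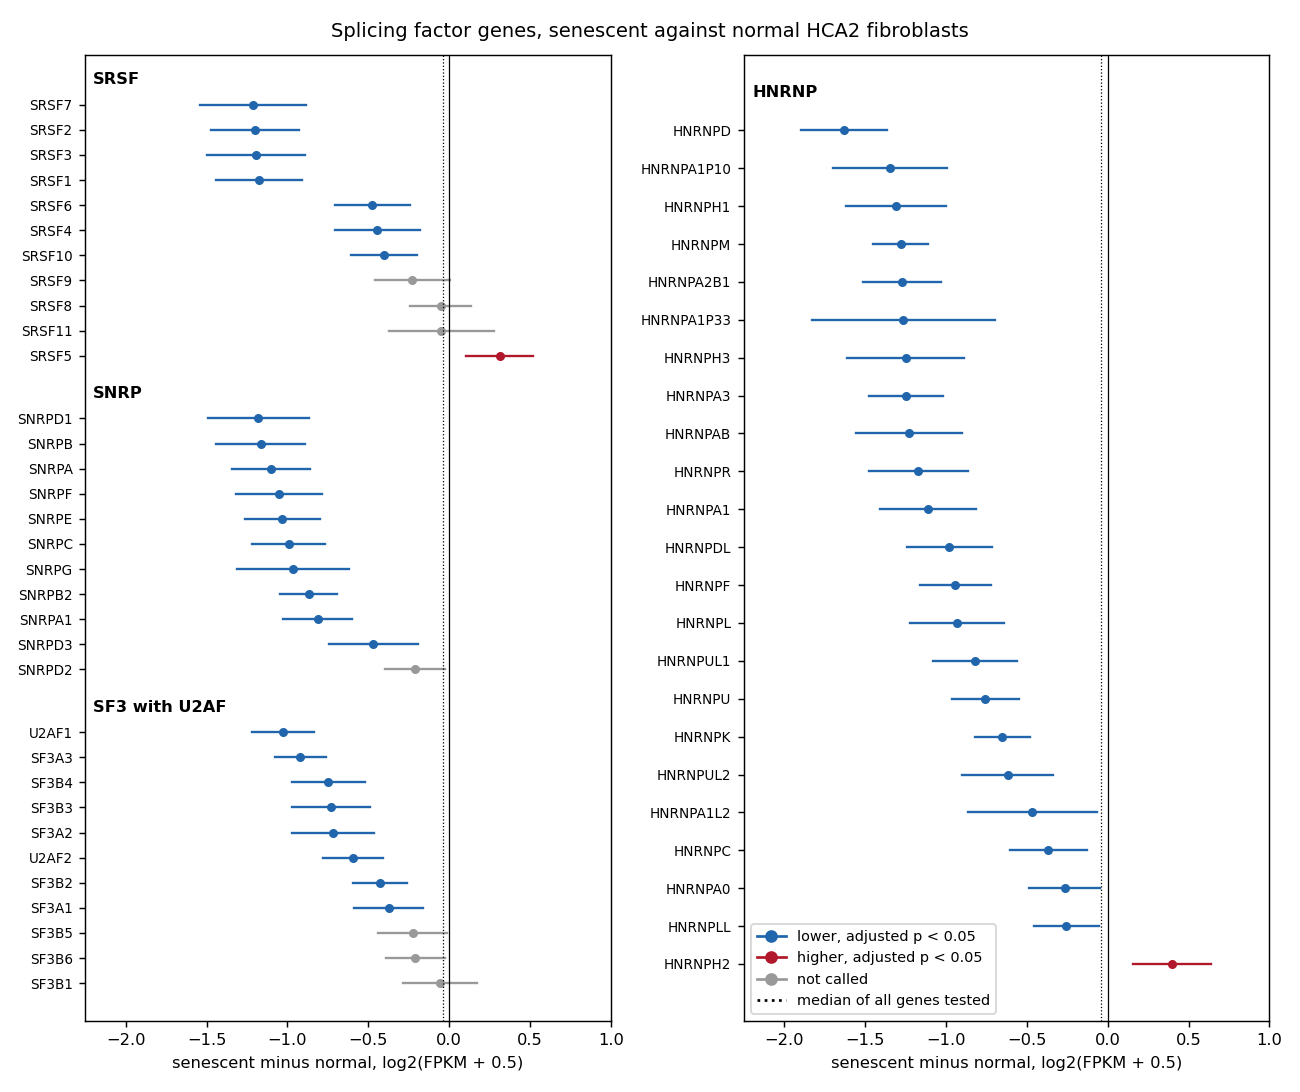
Log2 difference, senescent minus normal, of the 56 splicing factor genes tested, by gene series. Points are fitted differences on the log2(FPKM + 0.5) scale, lines are 95% confidence intervals from 9 libraries, and the dotted line is the median of all genes tested (−0.04). The 47 genes that fell lie to its left, down to HNRNPD at −1.63, and SRSF5 and HNRNPH2 lie to its right.

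Among the SR proteins, 7 of 11 genes tested fell, 1 rose and 3 were not called, with a median log2 difference of −0.44. They formed an uneven group. SRSF7, SRSF2, SRSF3 and SRSF1 had differences of −1.21, −1.20, −1.19 and −1.17, while SRSF6, SRSF4 and SRSF10 had −0.47, −0.44 and −0.40. SRSF12 did not pass the filter, with at most 0.209 FPKM in any library.

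SRSF1, which promotes exon inclusion and was first known as ASF/SF2, had 69.9, 62.9 and 51.4 FPKM in the normal libraries. It had 24.9, 24.3 and 27.7 in the PD-L1-negative and 25, 26.4 and 32.8 in the PD-L1-positive libraries. All 6 senescent libraries were below the normal ones, and the log2 difference was −1.17 (SE 0.12, limma adjusted p = 7.93e-05). SRSF3, a small SR protein, had 120, 105 and 72.7 FPKM in normal, 40.7, 40.6 and 44.1 in the PD-L1-negative and 42.7, 42.1 and 42.7 in the PD-L1-positive libraries. The senescent libraries lay within a few FPKM of one another, whereas the normal ones were spread, in the order of their proliferation sums. Its log2 difference was −1.19 (SE 0.14, limma adjusted p = 0.000143). SRSF2, also known as SC35, a protein of nuclear speckles, averaged 130 ± 26 FPKM in normal, 53.3 ± 1.5 in the PD-L1-negative and 58.3 ± 6.4 in the PD-L1-positive libraries (SD, n = 3 each). SRSF7 averaged 52.9 ± 13 FPKM in normal, 22.2 ± 2.8 in the PD-L1-negative and 22.2 ± 2.3 in the PD-L1-positive libraries (SD, n = 3 each).

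SRSF5 went the other way. It had 78.2, 81.4 and 84.8 FPKM in normal, 97.6, 101 and 103 in the PD-L1-negative and 97.2, 90.5 and 120 in the PD-L1-positive libraries. Every senescent library was above every normal one, and the log2 difference was 0.31 (SE 0.09, limma adjusted p = 0.0183). The call was lost when each library was scaled to an equal sum of FPKM (0.19) or scaled so without small RNA genes (0.22), and without normal replicate 1 (0.28) or 2 (0.31). SRSF9 and SRSF11 were the most abundant SR protein genes not called. SRSF9 averaged 76.4 ± 7.0 FPKM in normal, 66.2 ± 6.9 in the PD-L1-negative and 64.3 ± 7.7 in the PD-L1-positive libraries (SD, n = 3 each), and its 95% interval ran from −0.46 to 0.01. SRSF11 averaged 47.4 ± 1.2, 43.7 ± 3.1 and 49.4 ± 14 FPKM in the same order (SD, n = 3 each), and its interval ran from −0.37 to 0.28.

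The HNRNP genes moved more evenly: of 23 tested, 22 fell and 1 rose, with a median log2 difference of −0.98. The 6 HNRNP symbols under the filter were HNRNPCL1, HNRNPCL2, HNRNPCL3, HNRNPCL4, HNRNPKP3 and HNRNPA3P1. The first 5 were listed at 0 in every library. HNRNPA3P1 reached at most 0.0271 FPKM.

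HNRNPD, also known as AUF1, binds AU-rich elements of short-lived messages and had the lowest log2 difference of the 56 genes at the pseudocount of 0.5. At a pseudocount of 0.1 that of HNRNPA1P33 was lower, −2.31 against −1.64. HNRNPD had 165, 158 and 115 FPKM in the normal libraries. It had 42.2, 46.1 and 51.0 in the PD-L1-negative and 44.1, 46.6 and 48.0 in the PD-L1-positive libraries. The lowest normal library was above the highest senescent one, and the difference was −1.63 (SE 0.12, limma adjusted p = 1.9e-05). HNRNPM, an hnRNP that regulates alternative exons, averaged 137 ± 11 FPKM in normal, 55.3 ± 3.4 in the PD-L1-negative and 56.5 ± 1.6 in the PD-L1-positive libraries (SD, n = 3 each). Its log2 difference of −1.28 (SE 0.08) had the smallest adjusted p of the 56 genes, 7.81e-06 by limma. HNRNPH1, which binds runs of G, averaged 160 ± 24, 62.6 ± 7.0 and 66.4 ± 13 FPKM in the same order (SD, n = 3 each), a log2 difference of −1.31.

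HNRNPA1, a repressor of exon inclusion, had the highest level of the 56 genes. It had 518, 519 and 364 FPKM in normal, 222, 205 and 224 in the PD-L1-negative and 212, 183 and 236 in the PD-L1-positive libraries. No senescent library reached the lowest normal one, and the log2 difference was −1.11 (SE 0.13, limma adjusted p = 0.000168). HNRNPA2B1, its close relative, had 275, 297 and 219 FPKM in normal, 107, 95 and 114 in the PD-L1-negative and 106, 109 and 118 in the PD-L1-positive libraries. Its groups did not overlap either, with a log2 difference of −1.27 (SE 0.11, limma adjusted p = 3.69e-05). The pseudogenes HNRNPA1P10 and HNRNPA1P33 fell by 1.35 and 1.26 (log2). Both are near-copies of HNRNPA1, and how the authors' counting split reads between such copies is not given in the sources used here, so their values are uncertain. The same limit touches HNRNPA1L2, a retrocopy with a difference of −0.47 and a limma adjusted p of 0.049, whose groups overlapped. Its call was lost in 6 of the 9 fits that each left out 1 library, those without normal replicate 1 or 2 among them.

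HNRNPK and HNRNPC changed less. HNRNPK, which binds runs of C, averaged 237 ± 22 FPKM in normal, 150 ± 3.7 in the PD-L1-negative and 150 ± 2.8 in the PD-L1-positive libraries (SD, n = 3 each). Its log2 difference was −0.65 (SE 0.08, limma adjusted p = 0.000156). HNRNPC, which binds runs of U, had 162, 186 and 133 FPKM in normal, 123, 134 and 121 in the PD-L1-negative and 123, 128 and 112 in the PD-L1-positive libraries. Normal replicate 3 overlapped the senescent range, and the difference was −0.37 (SE 0.11, limma adjusted p = 0.0158). That call was lost without normal replicate 2, at −0.25.

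The remaining HNRNP genes covered a wide range. HNRNPA3, HNRNPH3, HNRNPAB and HNRNPR fell by 1.25, 1.25, 1.23 and 1.17 on the log2 scale, each without overlap of the groups. HNRNPF, a relative of HNRNPH1, and HNRNPL, which binds CA repeats, fell by 0.94 each. HNRNPU, a nuclear matrix protein also known as SAF-A, averaged 91.7 ± 10 FPKM in normal, 54.9 ± 5.6 in the PD-L1-negative and 53 ± 2.1 in the PD-L1-positive libraries (SD, n = 3 each), a fall of 0.76. Its relatives HNRNPUL1 and HNRNPUL2 fell by 0.82 and 0.62. HNRNPA0 and HNRNPLL had the smallest falls of the series, 0.27 and 0.26, with limma adjusted p of 0.0423 and 0.0349, and the groups of HNRNPA0 overlapped. Each lost its call in 7 of the 9 fits that left out 1 library. Without normal replicate 1 the difference of HNRNPA0 was −0.14 (limma adjusted p = 0.166), and without normal replicate 2 that of HNRNPLL was −0.25 (limma adjusted p = 0.0938).

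HNRNPH2, a paralog of HNRNPH1, rose. It had 25.6, 29.6 and 27.3 FPKM in normal, 35.3, 33.6 and 37.0 in the PD-L1-negative and 31.4, 37.7 and 44.3 in the PD-L1-positive libraries. All senescent libraries were above all normal ones, and the log2 difference was 0.40 (SE 0.11, limma adjusted p = 0.0115). The call was lost under scaling to an equal sum of FPKM (0.28) and when small RNA genes were left out before that scaling (0.31), with the direction kept.

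**Figure D2:**
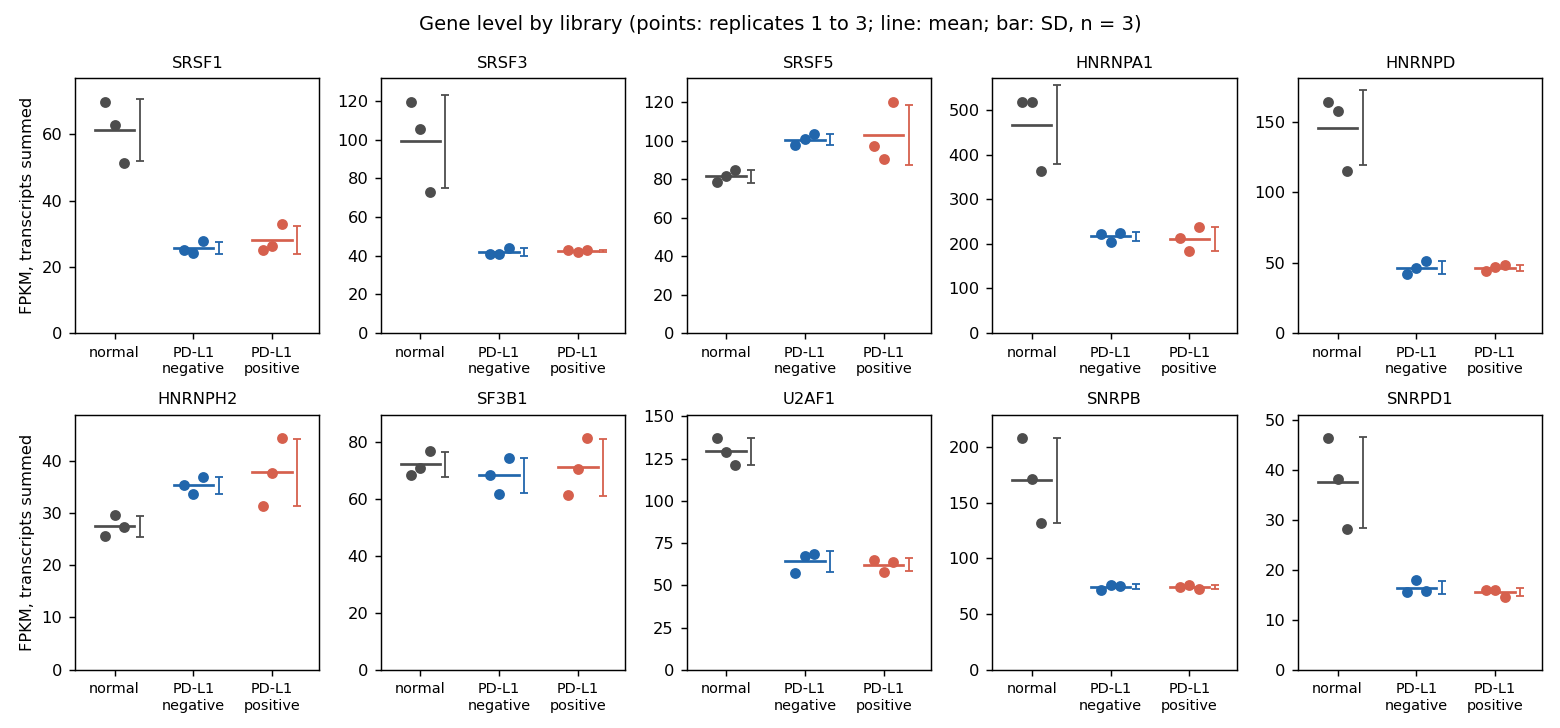
FPKM per library of 10 splicing factor genes in normal, PD-L1-negative senescent and PD-L1-positive senescent cells. Points are replicates 1 to 3 from left to right, lines are means and bars are SD (n = 3). HNRNPD, HNRNPA1, SRSF1, SRSF3, U2AF1, SNRPB and SNRPD1 are lower in all 6 senescent libraries, SRSF5 and HNRNPH2 are higher, and SF3B1 overlaps.

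Among SF3 and U2AF genes 8 of 11 fell and 3 were not called, with a median log2 difference of −0.59. U2AF1, the subunit that contacts the AG at the end of the intron, had 137, 129 and 121 FPKM in normal, 57.2, 67.3 and 68.6 in the PD-L1-negative and 64.8, 57.7 and 63.8 in the PD-L1-positive libraries. The groups were far apart, and the log2 difference was −1.03 (SE 0.08, limma adjusted p = 3.32e-05). U2AF2, the subunit that binds the polypyrimidine tract, averaged 74.8 ± 8.9, 47.4 ± 0.56 and 50.9 ± 0.34 FPKM in the same order (SD, n = 3 each), a difference of −0.59.

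All 3 SF3A genes fell, SF3A3 by 0.92, SF3A2 by 0.72 and SF3A1 by 0.37 on the log2 scale. Of the 6 SF3B genes, SF3B4, SF3B3 and SF3B2 fell, by 0.75, 0.73 and 0.43. SF3B1, the scaffold subunit that holds the branch point adenosine, had 68.5, 70.9 and 77.0 FPKM in normal, 68.5, 61.9 and 74.4 in the PD-L1-negative and 61.4, 70.5 and 81.3 in the PD-L1-positive libraries. The groups overlapped throughout, and the 95% interval of the log2 difference ran from −0.28 to 0.17 (limma adjusted p = 0.67). SF3B5 and SF3B6, small subunits of the same complex, had log2 differences of −0.23 and −0.21 with limma adjusted p of 0.0698 and 0.0519.

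Among SNRP genes 10 of 11 fell and 1 was not called, with a median log2 difference of −0.99. Of the Sm ring genes, SNRPD1 fell from 46.4, 38.2 and 28.1 FPKM in normal to 15.6, 18 and 15.8 in the PD-L1-negative and 16.0, 16.0 and 14.6 in the PD-L1-positive libraries. SNRPB had 208, 171 and 132 FPKM in normal, 71.8, 75.7 and 75.5 in the PD-L1-negative and 74.1, 75.8 and 72.8 in the PD-L1-positive libraries. Neither gene's groups overlapped, and both had their lowest normal level in replicate 3. The log2 differences were −1.18 (SE 0.14, limma adjusted p = 0.000166) for SNRPD1 and −1.17 (SE 0.12, limma adjusted p = 9.65e-05) for SNRPB.

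SNRPF, SNRPE, SNRPG and SNRPD3, also of the Sm ring, fell by 1.05, 1.03, 0.96 and 0.47 on the log2 scale. SNRPD2, the remaining Sm ring gene, averaged 192 ± 4.2 FPKM in normal, 171 ± 20 in the PD-L1-negative and 162 ± 4.7 in the PD-L1-positive libraries (SD, n = 3 each). It was not called, with an interval of −0.39 to −0.03 and a limma adjusted p of 0.0542. The U1 proteins SNRPA and SNRPC fell by 1.1 and 0.99 (log2). The U2 proteins SNRPB2 and SNRPA1 fell by 0.87 and 0.81.

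SNRPN, which encodes a Sm protein from an imprinted locus, did not pass the filter. It was listed at 0, 0.136 and 0 FPKM in normal, 0.590, 0.505 and 0.340 in the PD-L1-negative and 0.993, 0.291 and 0.660 in the PD-L1-positive libraries. Every senescent value was above every normal one, and the gene was left out of the test by the filter. SNURF, which shares its transcript with SNRPN, had 24.0, 30.2 and 45.4 FPKM in normal, 56.3, 64.8 and 49.5 in the PD-L1-negative and 56.9, 49.9 and 47.5 in the PD-L1-positive libraries. How reads of the shared transcript were divided between the symbols is not given in the sources used here, so neither level is certain. SNRPD2P2, a pseudogene, was listed above 0 in 1 library only, at 0.145 FPKM.

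Each senescent fraction was also compared with the normal libraries, which both comparisons share. In the PD-L1-negative fraction 44 of the 56 genes fell and 2 rose, against 26.6% and 21% of all genes. In the PD-L1-positive fraction 47 fell and 2 rose, against 26.3% and 21.1%. SRSF5 and HNRNPH2 were the genes that rose in each. HNRNPD differed from normal by −1.63 in each fraction, HNRNPA1 by −1.09 and −1.14, SRSF1 by −1.23 and −1.12, and SNRPB by −1.16 and −1.17, PD-L1-negative first.

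Between the fractions, no splicing factor gene was called by limma, and none had an unadjusted p under 0.05. The background was 0% of all genes tested in either direction. This fit did not pair the fractions by replicate number. Log2 differences, PD-L1-positive minus PD-L1-negative, ran from −0.15 to 0.14 over the 56 genes. The 95% interval lay within 0.5 of 0 for 52 of them, and over all 56 the bounds reached from −0.63 to 0.67. CD274, which encodes PD-L1, was 0.677 to 0.909 FPKM in the PD-L1-negative and 1.23 to 1.38 in the PD-L1-positive libraries, and 2.89 to 6.23 in normal ones.

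The table lists 142 transcripts of the 65 genes, of which 109 were tested, 65 were called lower and 3 higher. Among all transcripts tested, 20.7% were lower and 16.1% higher. The 3 that rose were NM_006925 of SRSF5, NM_019597 of HNRNPH2 and NM_002140 of HNRNPK. Among the listed transcripts were noncoding (NR) forms of genes that also have coding (NM) forms. Those of SRSF1, SRSF2, SRSF3, SRSF6 and HNRNPDL belong to the nonsense-mediated decay class of GENCODE 29.

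In the GRCh38 annotation, the form of SRSF3 carries an extra exon of 456 bases, chr6:36599821-36600276 on the plus strand. That of SRSF6 carries an extra exon of 268 bases, chr20:43459153-43459420 on the plus strand. The form of SRSF1 reads past a coding exon into the intron. Behind its stop it also carries an exon of 195 bases that the coding transcript lacks. The SRSF3 and SRSF6 exons and the SRSF1 intron stretch are shown from their first base to the stop codon they introduce, in capitals. They are parts in which the decay forms differ from the coding ones. They lie at chr6:36599821-36599854 (plus strand), chr20:43459153-43459304 (plus strand) and chr17:58005747-58005800 (minus strand).
SRSF3 extra exon: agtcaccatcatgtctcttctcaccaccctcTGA
SRSF6 extra exon: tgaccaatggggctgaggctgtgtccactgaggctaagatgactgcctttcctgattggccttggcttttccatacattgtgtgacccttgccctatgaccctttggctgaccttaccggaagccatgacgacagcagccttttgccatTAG
SRSF1 intron stretch: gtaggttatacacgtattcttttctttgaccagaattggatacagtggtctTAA

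The reading frame ends after 124 codons in the SRSF3 form against 164 in the coding transcript, after 135 against 344 for SRSF6, and after 201 against 248 for SRSF1. From the stop to the last exon junction there were 548, 534 and 824 bases in these forms. In SRSF2 and HNRNPDL the decay form keeps the coding stop and adds an exon behind it, of 104 and 105 bases. The SRSF2 form has 5 exons against 3 in the coding transcript, so the added exon is not its only difference. The last junction lay 209 bases behind the stop in SRSF2 and 127 in HNRNPDL, against 7 and 22 in the coding transcripts.

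The main coding transcript of each of these 5 genes fell, whereas none of the 5 decay forms was called at the level of the transcript. For SRSF3 the coding form had 109, 93.4 and 64.3 FPKM in normal, 32.9, 33.1 and 37.1 in the PD-L1-negative and 35.1, 34.7 and 33.3 in the PD-L1-positive libraries. Its decay form, with the extra exon shown above, had 10.4, 11.9 and 8.33, then 7.76, 7.52 and 6.98, and then 7.62, 7.35 and 9.43 FPKM in the same order. The coding groups did not overlap, whereas the decay form's did, with a log2 difference of −0.36 and a limma adjusted p of 0.0566.

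For SRSF2 the coding forms together had 152, 126 and 104 FPKM in normal and 48.0 to 61.7 in the 6 senescent libraries. The decay form had 4.12, 2.14 and 0.870 FPKM in normal, 4.34, 4.60 and 4.26 in the PD-L1-negative and 3.28, 3.71 and 3.97 in the PD-L1-positive libraries. Normal replicate 1 lay among the senescent values and the other 2 below them (log2 difference 0.82, limma adjusted p = 0.0708). HNRNPDL, a relative of HNRNPD, had coding levels of 68.4, 54.1 and 40.2 FPKM in normal and 19.8 to 24.1 in senescent libraries. Its decay form had 8.82, 10.7 and 14.1 FPKM in normal and 8.69 to 12.2 in senescent libraries, so that these groups overlapped.

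As a share of the gene's FPKM, the decay form of SRSF3 made up 8.69%, 11.3% and 11.5% in normal, 19.1%, 18.5% and 15.8% in PD-L1-negative and 17.8%, 17.5% and 22.1% in PD-L1-positive libraries. That of SRSF2 made up 0.826% to 2.63% in normal and 5.98% to 8.38% in senescent libraries. That of HNRNPDL made up 11.4% to 26.0% and 29.7% to 36.1%. The shares of these 3 genes did not overlap between normal and senescent libraries. How often such shares do not overlap among all genes was not counted, so nothing is read from this. The share of SRSF6 was 16.8% to 23.8% in normal and 23.9% to 34.2% in senescent libraries, which did not overlap but nearly touched. That of SRSF1 was 3.42% to 7.57% and 5.85% to 19.4%, which overlapped through PD-L1-positive replicate 1. SRSF10, whose noncoding form is not in the decay class, had overlapping shares of 12.6% to 20.0% and 11.6% to 20.9%. The noncoding form of SRSF8 is not in that class either, and its share also had a higher mean in senescent libraries. It was 8.65% to 22.7% in normal (mean 15.4%) and 19.5% to 38.5% in senescent libraries (mean 27.8%), which overlapped. A share rises when the coding form falls, so these values do not show that more of the decay form was made.

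The change of a transcript relative to the other transcripts of its gene was tested with limma's diffSplice, which covered 87 transcripts of 34 splicing factor genes. On simulated data diffSplice made too many false calls, so calls by it alone are uncertain. It called 18 transcripts in 9 genes, against 11.1% of all transcripts tested. Of the 7 noncoding forms in the test 5 were called higher, against 8.89% of 731 such transcripts, and these were the 5 decay forms. Because diffSplice takes 1 spread for all transcripts of a gene, each transcript's log ratio to the rest of its gene was also fitted with a spread of its own, an alternative chosen after seeing the data. The fits also measure unlike quantities. diffSplice compares a transcript with the average log2 level of the others, and the log ratio compares it with their summed FPKM. For NM_003016 of SRSF2 the values were 0.31 by diffSplice and 1.34 by the log ratio. A call made by only one of the fits therefore need not come from the spread. The log ratio fit called 12 of the transcripts against 7.27% of all, and the decay forms of SRSF2, SRSF3 and HNRNPDL against 4.38% higher among noncoding forms. Both fits called 8 transcripts, in 5 genes.

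The log ratio of the SRSF2 decay form rose by 2.10 on the log2 scale (SE 0.28, limma adjusted p = 0.00369), that of HNRNPDL by 1.26 (SE 0.28, limma adjusted p = 0.0306) and that of SRSF3 by 0.96 (SE 0.21, limma adjusted p = 0.0248). For SRSF1 and SRSF6 the log ratio differed by 1.36 and 0.80, with limma adjusted p of 0.0673 and 0.0569. These calls rest on diffSplice alone (adjusted p = 0.042 and 0.022) and are uncertain. The noncoding form of SRSF8, outside the decay class, differed by 0.83 and was not called. Its adjusted p was 0.0584 by diffSplice and 0.174 by limma in the log ratio fit. Neither fit called a decay form between the senescent fractions, where diffSplice called 0.137% of noncoding forms higher and 0.274% lower. HNRNPK NM_002140 was listed at 0, 0.00554 and 0.0110 FPKM in normal, 5.31, 11.4 and 7.89 in the PD-L1-negative and 2.24, 0.597 and 0.0125 in the PD-L1-positive libraries. It was the 1 splicing factor transcript with a diffSplice call between the fractions, against 0.176% of all transcripts, and the log ratio fit called none of the splicing factor transcripts and 0.0168% of all. Since an exact 0 in such a file can be a failed estimate, its values are given per library.

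Coding transcripts of one gene also differed from each other. NM_001195427, the main SRSF2 transcript, had 142, 119 and 97.3 FPKM in normal and 39.2 to 48 in senescent libraries. NM_003016 of the same gene had 10.9, 7.61 and 7.16 FPKM in normal and 6.31 to 13.8 in senescent libraries, so that the first did not overlap and the second did. For HNRNPH3, NM_021644 had a log2 difference of −1.93 and NM_012207 of −1.09. Their log ratios were called in the fit with a spread of its own (adjusted p = 0.0423 and 0.0239) but not by diffSplice (adjusted p = 0.104 for each). HNRNPC NM_001077443 was called by diffSplice alone, at an adjusted p of 0.0435. Its normal replicates stood at 26.4, 7.38 and 0.131 FPKM, and the senescent ones at 9.39 to 36.7, which overlapped.

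**Figure D3:**
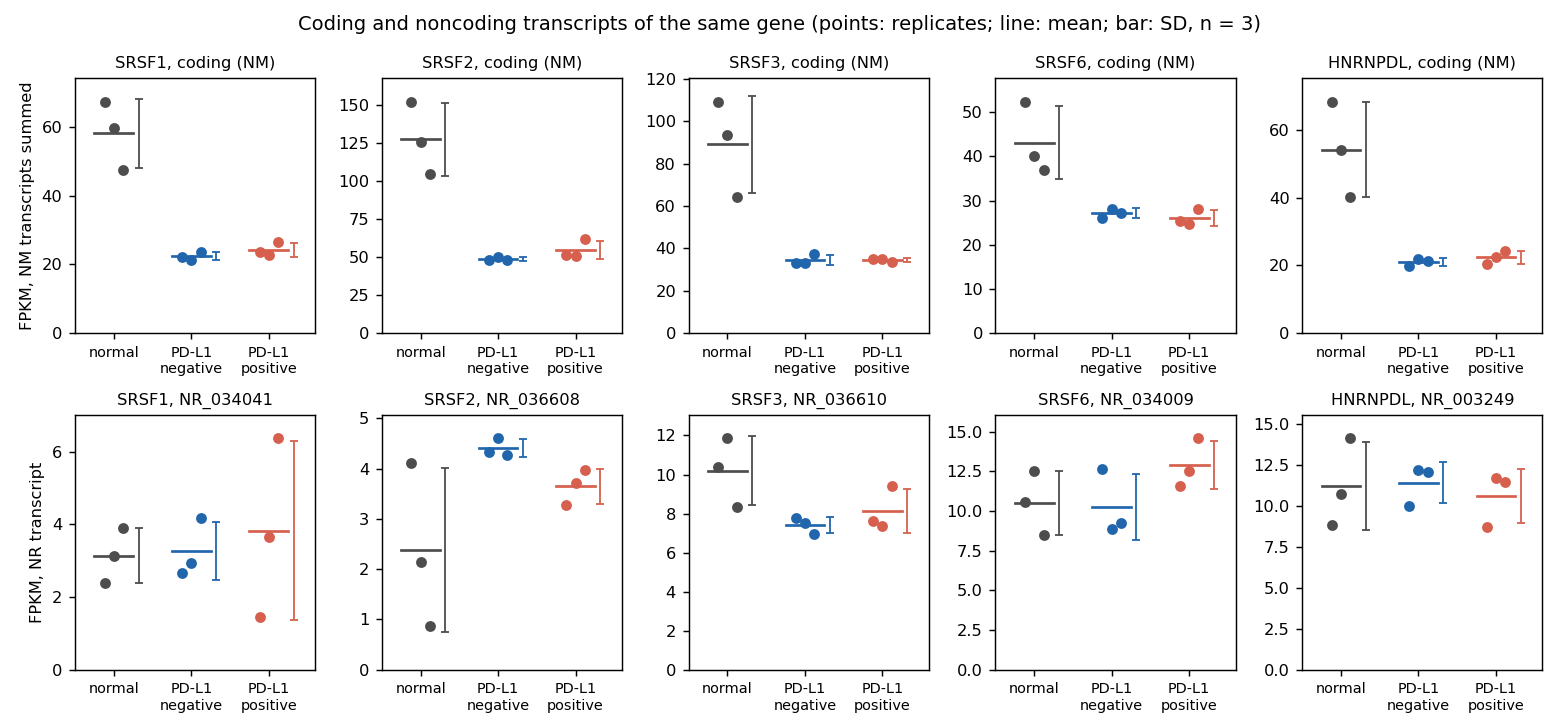
FPKM per library of the coding (NM, upper row) and decay-class noncoding (NR, lower row) transcripts of SRSF1, SRSF2, SRSF3, SRSF6 and HNRNPDL. Points are replicates 1 to 3, lines are means and bars are SD (n = 3). The coding forms are lower in every senescent library, whereas the noncoding forms of all 5 genes overlap between normal and senescent libraries.

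Other genes of the pathway, taken from 11 lists of 145 genes, were lower in most lists. Of 139 tested, 89 fell and 3 rose, with a median log2 difference of −0.41, where 29.9% of all genes were called lower and 23.9% higher. Under scaling to an equal sum of FPKM 2 rose. In the LSM ring list, most of whose genes encode the ring that binds the U6 RNA, 7 of 8 fell, LSM2 by 1.23 (log2). In the tri-snRNP 13 of 16 fell, among them PPIH by 1.13, SNRNP40 by 0.95 and EFTUD2, the U5 GTPase, by 0.77. Of the PRP19 complex and catalytic step genes, 17 of 20 fell and 2 rose, SYF2 by 0.40 and SLU7, a factor of the second step, by 0.28. The call of SLU7 was lost under that scaling (0.16), also without small RNA genes (0.19), and without normal replicate 2 (0.26). Of the U2 partners 9 of 12 fell, among them PHF5A, a subunit of SF3B, by 1.08. The snRNP assembly genes fell in 10 of 12 cases, GEMIN6 by 0.86. In the exon junction complex, which is placed on spliced RNA, 4 of 5 fell, MAGOHB by 1.14 and MAGOH by 0.98.

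Of the other splicing regulators 16 of 24 fell. KHDRBS3, a STAR-family regulator, had 20.7, 16.7 and 17.7 FPKM in normal, 4.31, 4.29 and 5.57 in the PD-L1-negative and 4.14, 5.31 and 5.12 in the PD-L1-positive libraries. Its groups did not overlap, and the log2 difference was −1.84 (SE 0.12, limma adjusted p = 1.26e-05). TRA2B, the SR-like partner of SR proteins, fell by 1.32 on the log2 scale, from 34.4 to 13.4 FPKM.

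In the remaining lists the share that fell was near or below the background of 29.9%, except for 37.5% of the SR-like and SR-related genes, and nothing is read from these counts. Of 8 genes for SR kinases and import 2 fell, TNPO3, the importin of SR proteins, by 0.64 and PRPF4B by 0.42, the latter not called without normal replicate 2. CLK1 and SRPK1, kinases of SR proteins, had log2 differences of 0.29 and −0.11 and were not called. Of 8 genes of U1-70K and the minor spliceosome 2 fell, SNRNP48 by 0.43 and SNRNP70 by 0.27, whose calls were lost in 8 and 5 of the 9 fits that left out 1 library. Of 16 SR-like and SR-related genes 6 fell. Of 10 nonsense-mediated decay genes 3 fell, UPF2 by 0.56, UPF3B by 0.44 and UPF1 by 0.32, and 1 rose, the endonuclease gene SMG6, by 0.42. The call of UPF3B was lost in 7 of those 9 fits and that of UPF1 in 1, without normal replicate 1.

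**Figure D4:**
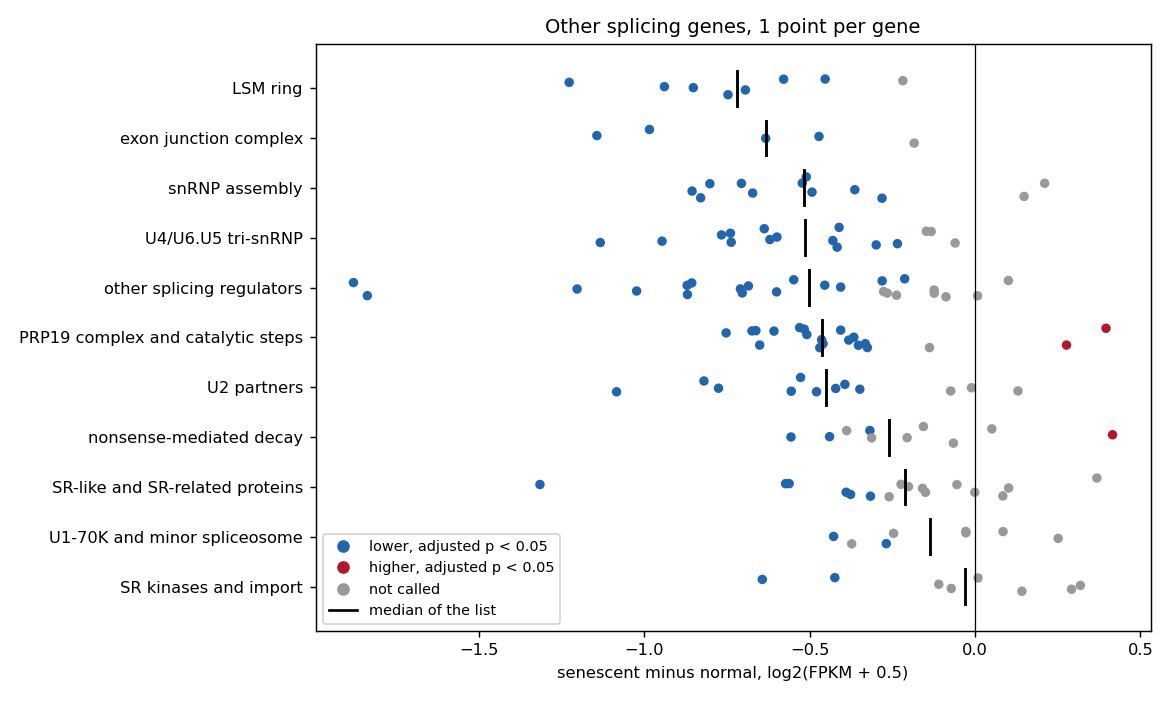
Log2 difference, senescent minus normal, of 139 other splicing genes in 11 lists, 1 point per gene on the log2(FPKM + 0.5) scale, with black bars at list medians. The medians run from −0.72 in the LSM ring to −0.03 for SR kinases and import.

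Promoter sequences from RefSeq (GRCh38.p14), covering 250 bases before to 50 after the start, matched 55 of the 65 genes. Only the 250 bases before the start were searched, on both strands, for 9 motifs chosen with the results known. The 50 bases after the start were not searched. A gene was counted as a match if any of its promoters held the letters. The ETS letters CCGGAAGT were found in 13 of the 55 genes, or 23.6%, against 5.93% of 14295 coding genes counted alike. Of all 35116 promoters, each counted singly, 3.42% held the letters, a share in another unit. The ETS letters were in promoters of 3 SF3A and 3 SF3B genes and of HNRNPD, SNRPA1, SNRPB, SNRPE, SRSF4, SRSF5 and U2AF2. Of these 13 genes 11 fell, 1 rose (SRSF5) and 1 was not called (SF3B6). Of all 56 splicing factor genes tested 47, or 83.9%, fell, which is near that share, so nothing is read from this count. The 250 bases upstream are shown for HNRNPD, SNRPB and SF3A3, which fell, and for SRSF5, whose call was lost under both scalings and without normal replicate 1 or 2. The ETS letters of either strand are in capitals, to show where they lie in the window. They lie at chr4:82373992-82374241, chr20:2470790-2471039, chr1:37990023-37990272 (all minus strand) and chr14:69766892-69767141 (plus strand).
HNRNPD: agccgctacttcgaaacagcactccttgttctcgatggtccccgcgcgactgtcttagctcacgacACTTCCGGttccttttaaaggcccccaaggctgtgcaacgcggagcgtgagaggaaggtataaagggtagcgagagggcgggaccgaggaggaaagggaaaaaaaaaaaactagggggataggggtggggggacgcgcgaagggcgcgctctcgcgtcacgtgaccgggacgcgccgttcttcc
SNRPB: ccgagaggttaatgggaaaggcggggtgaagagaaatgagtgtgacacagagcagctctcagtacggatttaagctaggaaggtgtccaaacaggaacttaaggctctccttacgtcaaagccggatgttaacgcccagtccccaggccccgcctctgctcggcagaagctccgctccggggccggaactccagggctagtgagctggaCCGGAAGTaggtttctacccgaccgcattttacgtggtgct
SF3A3: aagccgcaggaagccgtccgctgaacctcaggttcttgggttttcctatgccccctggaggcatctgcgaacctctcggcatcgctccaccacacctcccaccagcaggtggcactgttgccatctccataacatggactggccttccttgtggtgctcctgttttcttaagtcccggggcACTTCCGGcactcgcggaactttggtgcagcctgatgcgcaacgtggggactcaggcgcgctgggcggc
SRSF5: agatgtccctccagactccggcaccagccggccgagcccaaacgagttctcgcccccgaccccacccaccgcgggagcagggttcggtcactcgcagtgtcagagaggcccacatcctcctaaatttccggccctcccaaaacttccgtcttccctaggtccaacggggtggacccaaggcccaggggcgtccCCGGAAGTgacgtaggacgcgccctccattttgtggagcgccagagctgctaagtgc

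The E2F letters (TTTGGCGC, TTTCGCGC, TTTCCCGC or TTTGCCGC) were in 12.7% of the 55 genes. They were in 2.79% of all promoters, counted singly, and in 4.54% of coding genes, counted by gene. The shares below are in the same order and units. The CCAAT letters were in 47.3% against 32% and 40.5%, and the E-box CACGTG was in 12.7% against 6.34% and 9.83%. The SP1 letters GGGGCGGGG were in 23.6% against 15.1% and 26.5%. TTTGAA or TTCGAA, the cell cycle homology region letters, were in 12.7% against 14.3% and 15.4%. The NRF1 and YY1 motifs, searched as 1 consensus each, and the CRE letters TGACGTCA were in none of the 55 genes. They were in 1.03%, 0.248% and 1.65% of all promoters and in 1.74%, 0.364% and 2.74% of coding genes. A match is only a description of letters. In the authors' deposited table of motif and track enrichments, 3 of the 65 genes were listed among 210 targets, HNRNPR in 66, HNRNPL in 56 and HNRNPAB in 33 of its 128 rows. Of these rows 29, 15 and 18 were E2F rows in the authors' deposited table, where 52 of all 128 rows are E2F rows.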

How the data were processed

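The authors deposited FPKM values per RefSeq transcript for 9 libraries, as a table of 52741 transcripts. The build hg19 and the tools DESeq2 1.22.2, HTSeq 0.11.2 and STAR 2.5.2a are named in the submitters' processing notes; the program that made the FPKM is not given in the sources used here. Per the labels' protocols, polyA RNA and a strand-keeping kit were used. The authors also deposited an iRegulon table, whose normalized enrichment score was not tested. With no counts in the files, no count test was run, and the steps between low values of 7210 transcripts gave an estimate of depth.

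FPKM were summed per symbol. limma 3.58.1 in R 4.3.3 was fitted to log2(FPKM + 0.5) of the 12763 genes with a mean of at least 0.5, with an intensity trend, 3 groups and 6 residual degrees of freedom, and likewise to 19964 transcripts, of which 11923 entered the usage test. The fits were tested on simulated data, where diffSplice made too many false calls, so a log ratio fit was added. The members and lists were chosen with earlier results of these data known. Genes were named by a rule: in each series up to 6 called with the largest change, those called against the majority, the 2 most abundant not called, and a fixed set of well-known genes; other genes named, among them UPF1, SYF2, SLU7, CLK1 and SRPK1, were added after their values were seen. Alternatives covered pseudocount, filter, scaling, trend, threshold, replicate block, NM transcripts alone and leaving out each library. Sequences came from RefSeq and GRCh38, read with Python 3.11.15, and transcript classes from GENCODE 29. The main fits did not pair libraries by replicate number. Deviations from the group mean correlated at 0.09, 0.22 and 0.46 between the 2 fractions' replicates 1, 2 and 3. Between fractions of different number the correlations ran from −0.31 to 0.14. Those of normal with senescent libraries of the same number ran from −0.01 to 0.13. Whether the numbers mark shared cultures is not stated and was not tested.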

Additional observations from a re-analysis of the deposited data

Results flagged for a closer look

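NM_002140 of HNRNPK was set apart because its relation to normal differed between the fractions. Its usage, the level relative to the other HNRNPK transcripts, was lower in PD-L1-positive than in PD-L1-negative libraries by a log2 difference of −2.93 (diffSplice adjusted p = 0.00244). In the fit with a spread of its own the adjusted p was 0.38. The level was 5.31 to 11.4 FPKM in the PD-L1-negative libraries, and PD-L1-positive replicate 1, at 2.24, was the highest of its group, so all 3 were lower.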

How the results depend on the processing

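In the senescent against normal comparison, the 56 genes tested had 1170 values under the alternatives, of which 1107 kept their direction and side of the threshold, 44 lost and 16 gained a call, 3 uncalled ones changed sign and 0 called ones reversed. HNRNPA0 and HNRNPA1L2 lost their call in 11 alternatives each and HNRNPLL in 10. Of 756 values of 36 other splicing genes, 711 kept theirs, 44 lost a call and 1 uncalled one changed sign. Scaling to an equal sum of FPKM moved the median of all genes to −0.15 and, without small RNA genes, to −0.13, and calls in the lower direction from 55.7% to 66.6% and 64.2%. Both left 0 genes called higher in each of the 3 comparisons with normal, as did an adjusted p under 0.01, and 1 transcript higher under each. In PD-L1-negative cells 1 gene was higher with no filter or quantile normalization, and 0 genes were higher without the trend, which left 1 transcript higher. In PD-L1-positive cells 1 gene was higher with only the libraries compared. Under the equal sum the SRSF median was −0.56 and the SF3 with U2AF median −0.71. Quantile normalization gave 5 other splicing genes higher.

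Usage calls dropped to 11 with a pseudocount of 0.1 or an adjusted p under 0.01, and noncoding forms higher to 3 under the latter and in the log ratio fit. For NM_031262 of HNRNPK the value was −1.57 by diffSplice and 0.0273 by the log ratio fit. As given above, these fits compare a transcript with unlike quantities. How far that accounts for the change was not tested. Leaving out each library gave 43 to 49 genes lower in all senescent, 39 to 44 in the PD-L1-negative and 40 to 49 in PD-L1-positive cells. Genes higher were 1 to 2 in all senescent, 0 to 2 in the PD-L1-negative and 0 to 2 in PD-L1-positive cells. Medians ran from −0.70 to −0.54 for SF3 with U2AF and from −1.16 to −0.91 for SNRP, both lowest without normal replicate 3. Transcripts higher were 1 to 3, with 1 when any PD-L1-negative library was left out, and other splicing genes higher 2 to 5, with 5 without PD-L1-positive replicate 1. Noncoding forms with higher usage were 3 to 6, with 3 without normal replicate 1 or PD-L1-positive replicate 2. With a replicate block 47 genes were lower and 2 higher, and 90 other splicing genes were lower. Whether the numbers pair the libraries is not stated. The replicate block gave the same counts of members as the fit without it, but not the same genes. HNRNPA1L2 lost its call under the block (limma adjusted p = 0.0762). Genes with a mean under 0.5 FPKM were left out by choice.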
